A study of Mus musculus with 6 samples.

Results

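The genes for respiratory complexes II to V, with cytochrome c, were followed in hearts of wild-type and Cav1 knockout mice. Members were all genes with the symbols Sdha to Sdhd, Cyc1 or Cycs, or with a symbol starting with Uqcr, Cox4, Cox5, Cox6, Cox7, Cox8 or Atp5, measured by probe sets that the array annotation assigns to exactly 1 symbol. This gave 48 of 18193 genes, on 96 of 45037 probe sets, and each gene was counted at its brightest probe set by mean over the 6 hearts. The members were 4 genes of complex II, 9 of complex III, 1 for cytochrome c, 17 of complex IV and 17 of complex V. Cox7b and the subunits encoded by mitochondrial DNA were not analysed here.

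RNA from 6 heart samples was measured on Affymetrix expression arrays, 1 array a sample: 3 of wild-type mice and 3 of mice that the labels call Cav1KO. All mice were male, 5 to 6 months old, and had been fasted for 6 hours. Cav1 encodes caveolin-1, a coat protein of the small pits of the plasma membrane called caveolae. The labels give neither the strain nor the deleted part of the gene, and do not state that every sample came from its own animal, so p-values here speak only of the spread among the samples, which may be technical. As a check of the labels, the deposited Cav1 intensity was 3745 to 4259 in wild-type and 101 to 120 in knockout hearts. The 12 cardiomyocyte markers, the contractile and calcium handling genes that define heart muscle, had no call, with differences from -0.047 to 0.019 on the log2 scale. They are among the brightest genes on the array, and whether signals there were still proportional to RNA was not tested.

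The respiratory chain passes electrons from nutrients to oxygen in the inner mitochondrial membrane. Complex II, which is also the citric acid cycle enzyme succinate dehydrogenase, hands electrons to ubiquinone, complex III passes them on to cytochrome c, and complex IV to oxygen. Complexes III and IV pump protons, and complex V, ATP synthase, lets the protons flow back and makes ATP. Heart muscle is packed with mitochondria and takes nearly all its ATP from this chain. Complex IV is the complex with the most paired isoforms: for several of its subunits 1 gene is used in heart and skeletal muscle and another in most tissues.

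Respiratory subunit RNA differed little between the groups. Uqcr10, a small subunit of complex III, and Cox7a1, the heart and skeletal muscle isoform of a complex IV subunit, fell in knockout hearts by 0.14 each on the log2 scale. The level of Uqcr10 fell by 9.50% and that of Cox7a1 fell by 9.43%. These were the 2 called lower of the 47 members tested, and no member was called higher. Over all 11486 genes tested by the same rule, 1.07% were called lower and 2.97% higher, where a call is a limma p below 0.05 after Benjamini-Hochberg adjustment over every tested probe set. The 45 members that did not pass ran from -0.32 to 0.093, and 37 of all 47 stood below 0, while 54.2% of all genes tested did. The median was -0.035 over the members and -0.014 over all genes tested. With the intensities as deposited these medians were -0.039 and 0.034, so the gap between them depended on the processing. Groups did not overlap, with the knockout lower, in 16 members, against 15.2% of all genes, and with the knockout higher in 1 member, Atp5g3, against 13.5%. Unadjusted p was under 0.05 in 13 members, all lower in knockout. The share over all genes was 11% lower and 11.1% higher. Most members were bright, so genes with a mean log2 level of 12 or more are a nearer comparison. Of 39 such members, groups did not overlap with the knockout lower in 13 and higher in 1. Of 240 other genes at this level, it was 49 lower and 28 higher. Unadjusted limma p was under 0.05 in 9 of these members, all lower, and in 41 of the other genes lower and 23 higher. Below 0 stood 31 of the 39 and 129 of the 240.

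**Figure D1:**
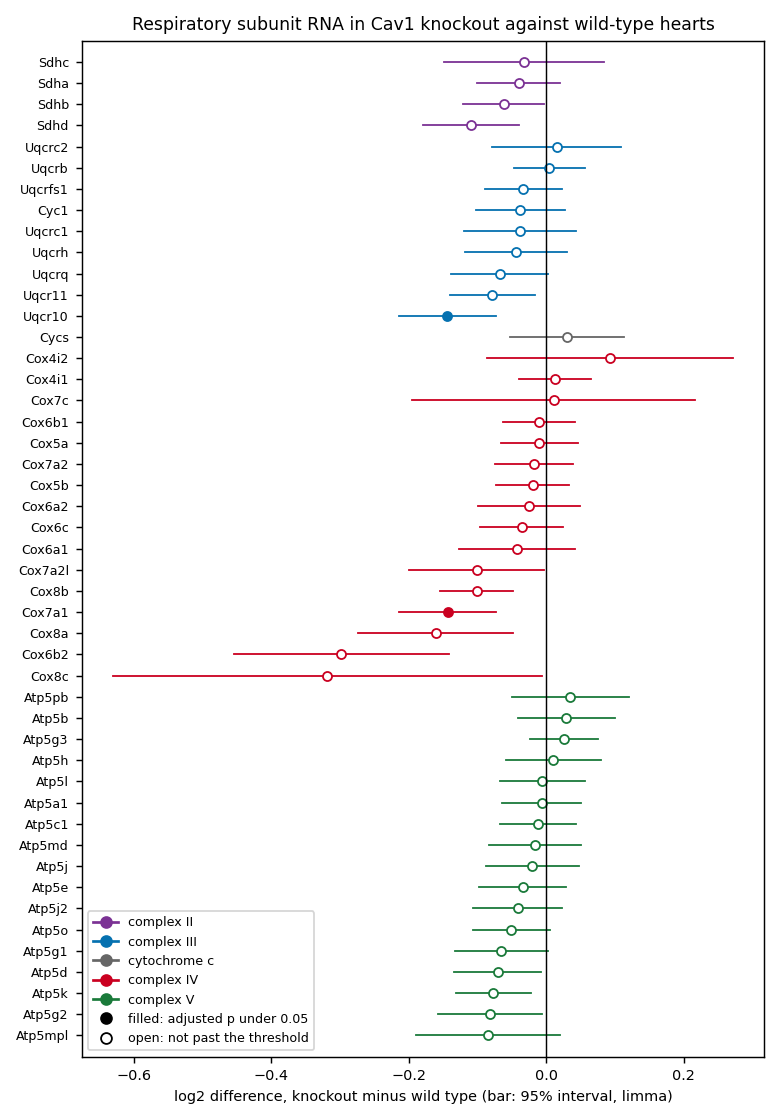
Log2 difference of knockout minus wild type for the 47 tested members at their brightest probe set, by complex, with 95% intervals from limma. Filled points passed the array-wide threshold: Uqcr10 and Cox7a1, each at -0.14. Most of the other points lie between -0.1 and 0, and the wide intervals belong to dim genes such as Cox8c, Cox6b2, Cox4i2 and Cox7c.

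Both calls were close to the threshold. Neither passed when any one of the 6 arrays was left out (0 members called in each case), when arrays were centred on their medians, with no filter on low values, or with limma's variance trend switched off. With the intensities as deposited Cox7a1 alone passed, and Uqcr10 had an adjusted p of 0.0629. The direction was the same for both genes in all 14 alternatives in which each was fitted. The 95% interval of the log2 difference lay wholly above -0.32 in 45 members, with Cox6b2 and Cox8c as the exceptions, and wholly below 0.32 in all 47.

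The member levels were nearly the same in every heart. The median over the 47 members of the log2 level, set against each gene's mean over 6 hearts, was 0.0091, 0.018 and 0.020 in the wild-type hearts and -0.024, -0.016 and -0.018 in the knockout hearts. The same quantity over all genes tested was 0.010, -0.0087 and 0.0082 in wild-type hearts, and the knockout hearts lay between -0.0090 and -0.0058. For the members, the 3 knockout hearts all stood below the 3 wild-type hearts. For scale, the marker lists of endothelial cells, macrophages and fibroblasts moved further and upward in knockout hearts. Of the endothelial list 5 of 8 genes were called higher (summed normalised intensity 3940 to 4106 in wild type, 4895 to 5671 in knockout), of the macrophage list 5 of 8 (2997 to 3458, then 4087 to 4200), and of the fibroblast list 2 of 7 (11278 to 12974, then 13504 to 16493). None of these lists had a marker at 0, but the lowest deposited value on any array was 5.11, so this does not show detection. In whole hearts, a change in the number of cells of a type and a change in RNA per cell cannot be told apart. The part of these other cells in the member differences was not tested. The summed intensity of the 12 cardiomyocyte markers was 187433 to 190778 in wild type and 187620 to 189914 in knockout hearts, so the groups overlapped. These markers had a median percentile of 99.97 among probe sets. There the normalisation to a common distribution gives every array nearly the same values and leaves such a sum little room to differ. The overlap therefore does not show an equal content of cardiomyocytes.

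**Figure D2:**
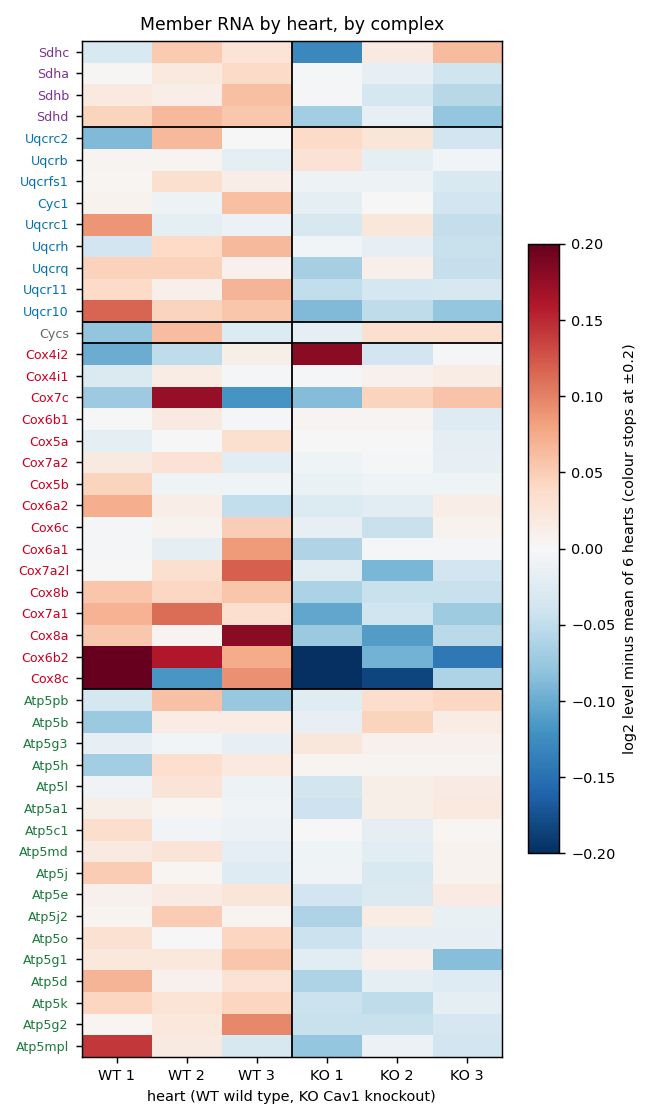
Log2 level of each tested member in each heart, set against its mean over the 6 hearts, with genes ordered by complex and, within a complex, by the difference between the groups. Red is above and blue below the gene's mean, and the colour scale stops at 0.2 on either side. Uqcr10, Cox7a1, Cox8b and Cox6b2 are red in the 3 wild-type hearts and blue in the 3 knockout hearts, while ATP synthase genes are pale in most hearts.

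Cox7a1 and Cox8b are the heart and muscle isoforms of complex IV subunits whose general forms are Cox7a2 and Cox8a, and Uqcr10 has no such partner. The 250 bases before the start of these 5 genes are shown because the genes with the smallest p among the members are here. Sequences are from RefSeq, build GRCm38.p6, 5′ to 3′ on the gene's strand, with CpG dinucleotides in capitals.
Cox7a1, chr7:30183921-30184170, plus strand: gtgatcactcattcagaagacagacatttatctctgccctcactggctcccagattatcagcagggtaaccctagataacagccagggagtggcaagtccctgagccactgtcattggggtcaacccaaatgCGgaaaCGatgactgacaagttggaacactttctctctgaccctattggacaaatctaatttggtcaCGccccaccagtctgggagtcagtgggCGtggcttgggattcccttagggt
Cox7a2, chr9:79759854-79760103, minus strand: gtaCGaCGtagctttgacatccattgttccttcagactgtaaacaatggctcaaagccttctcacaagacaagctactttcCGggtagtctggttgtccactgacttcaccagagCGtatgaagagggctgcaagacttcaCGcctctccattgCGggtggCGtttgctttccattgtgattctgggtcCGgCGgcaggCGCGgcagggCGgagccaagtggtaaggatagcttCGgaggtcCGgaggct
Cox8b, chr7:140900447-140900696, minus strand: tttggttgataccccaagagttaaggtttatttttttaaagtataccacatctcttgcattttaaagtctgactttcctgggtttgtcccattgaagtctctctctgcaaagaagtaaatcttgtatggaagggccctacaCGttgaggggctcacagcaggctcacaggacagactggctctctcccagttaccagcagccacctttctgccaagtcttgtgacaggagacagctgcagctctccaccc
Cox8a, chr19:7217617-7217866, minus strand: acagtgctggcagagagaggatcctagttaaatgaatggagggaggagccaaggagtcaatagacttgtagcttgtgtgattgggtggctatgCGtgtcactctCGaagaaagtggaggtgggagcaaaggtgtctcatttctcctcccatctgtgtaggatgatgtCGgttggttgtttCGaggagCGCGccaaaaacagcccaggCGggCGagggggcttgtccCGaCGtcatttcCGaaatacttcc
Uqcr10, chr11:4704345-4704594, minus strand: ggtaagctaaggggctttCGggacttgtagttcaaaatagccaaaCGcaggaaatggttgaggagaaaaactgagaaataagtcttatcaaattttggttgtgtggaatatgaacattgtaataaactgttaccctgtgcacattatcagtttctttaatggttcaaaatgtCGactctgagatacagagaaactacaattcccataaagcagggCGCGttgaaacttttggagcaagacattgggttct

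The start regions of Cox8b, Cox7a1 and Uqcr10 are poor in CpG, with 1, 4 and 5 dinucleotides, while Cox8a has 11 and Cox7a2 has 14. Of the 48 members 36 had an entry in the RefSeq promoter table, with a median of 14 CpG in this window. The median was 16 over 9235 other genes tested. Some sequence motifs of factors known for mitochondrial genes were looked for on both strands of the same window, each counted on its own. The NRF1 motif was found in 7 of the 36 members (Atp5c1, Atp5g2, Atp5h, Atp5k, Cox6a1, Sdha and Sdhd), or 19.4%, and in 839 of the 9235 other genes. The ETS motif CCGGAAGT, read by the factor GABP, was in 3 members (Atp5h, Uqcr11 and Uqcrh), or 8.33%, and in 6.39% of the others. TCAAGGTCA, the motif of the ERR nuclear receptors, was in Atp5g3 and in 28 others, and AAGATGGCG, a YY1 motif, was in Atp5j and in 128 others. The E-box CAGCTG was in Atp5b and Cox8b, in the latter at 19 to 14 bases before the start, and in 1345 others. In the 5 windows printed, this E-box was the only match, and a match is a string of letters, not a site shown to be used.

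In complex II no gene passed, and all 4 stood below 0. Sdha, the flavoprotein that oxidises succinate, had a log2 difference of -0.040 and Sdhb, the iron-sulphur subunit, of -0.062 (adjusted p = 0.424 and 0.234, limma). Sdhc and Sdhd anchor the enzyme in the membrane and stood at -0.032 and -0.11. Sdhd read 12.120, 12.140 and 12.129 in the wild-type hearts and 12.005, 12.058 and 11.997 in the knockout hearts, on the scale of log2(intensity + 16). The groups did not overlap for Sdhd, Sdha and Sdhb, but the adjusted p of Sdhd was 0.103 (limma). A weaker probe set of Sdhd had -0.16, and one of Sdhc -0.11, also short of the threshold.

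In complex III 1 of 9 genes was called. Uqcr10 stood at a deposited intensity of 5822, 5642 and 5737 in the wild-type hearts and 5166, 5327 and 5248 in the knockout hearts. All 3 knockout hearts were below all 3 wild-type hearts. On the log2 scale the means were 12.50 ± 0.038 and 12.36 ± 0.019 (SD, n = 3 each), with a difference of -0.14 (SE 0.031, 95% interval -0.21 to -0.074, limma adjusted p = 0.0443). Its other 2 probe sets, both dimmer, had -0.12 and -0.083 and did not pass. Uqcr11, another small subunit, stood at -0.078 with adjusted p = 0.166 (limma), and its groups did not overlap. Of the catalytic subunits, Cyc1, cytochrome c1, had -0.038 and Uqcrfs1, the Rieske iron-sulphur protein, -0.033. The core proteins Uqcrc1 and Uqcrc2 had -0.038 and 0.015. Uqcrh, the hinge protein that docks cytochrome c, had -0.044, Uqcrq -0.068 and Uqcrb 0.0044, and none of these passed. Cycs, cytochrome c itself, stood at 0.030 and did not pass, and its 3 weaker tested probe sets lay between -0.044 and 0.054.

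In complex IV 1 of 16 tested genes was called. Cox7a1 stood at a deposited intensity of 8216, 8521 and 8076 in the wild-type hearts and 7288, 7606 and 7390 in the knockout hearts, and the groups did not overlap. On the log2 scale the means were 13.01 ± 0.039 and 12.87 ± 0.032 (SD, n = 3 each), with a difference of -0.14 (SE 0.031, 95% interval -0.21 to -0.072, limma adjusted p = 0.0452). Cox7a1 had 1 probe set. Cox8b lay just outside the threshold. It read 13.40, 13.39 and 13.40 in wild-type hearts, against 13.29, 13.30 and 13.30 in knockout hearts, a difference of -0.10 without overlap (SD 0.0083 and 0.011, n = 3 each, limma adjusted p = 0.0565). It passed with array weights, at 0.0355, and among the upper 25% of probe sets, at 0.0258.

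Most general subunits of complex IV gave small values. Cox4i1 stood at 0.012, Cox5a at -0.010, Cox5b at -0.019, Cox6b1 at -0.010, Cox6c at -0.035 and Cox7a2 at -0.017, and none passed. Cox5b, with 5 tested probe sets, had all of them below 0, the lowest at -0.15. Cox8a stood at -0.16 (limma adjusted p = 0.127) and Cox7a2l, a relative of Cox7a2 that takes part in joining complexes III and IV into supercomplexes, at -0.10 (limma adjusted p = 0.240). The groups of both did not overlap. Cox7c was dim on its probe sets, at 6.46 and 6.47 on the log2 scale in the 2 groups at the brighter one, with a difference of 0.011. For this gene the array gives little information, since its 95% interval ran from -0.20 to 0.22.

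The isoforms known from testis and other tissues were dim. Cox6b2, a testis isoform, read 6.85, 6.80 and 6.71 in wild-type hearts, against 6.43, 6.54 and 6.49 in knockout hearts, with no overlap and a difference of -0.30 (SE 0.069, limma adjusted p = 0.0568). It passed with array weights, at 0.0484. Cox8c, also a testis isoform, had 7.95, 7.33 and 7.54 in wild-type hearts, against 7.21, 7.26 and 7.39 in knockout hearts. Its difference of -0.32 did not pass (limma adjusted p = 0.242), and wild type replicate 1 stood above the other hearts. Cox4i2, the isoform known from lung and from low oxygen, read 6.13, 6.18 and 6.25 in wild-type hearts, against 6.42, 6.20 and 6.23 in knockout hearts. Its difference of 0.093 was the highest of any member and did not pass (limma adjusted p = 0.525). Cox7b2 was the only member too dim to be tested, at a mean log2 level of 4.83 in wild type and 4.71 in knockout.

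**Figure D3:**
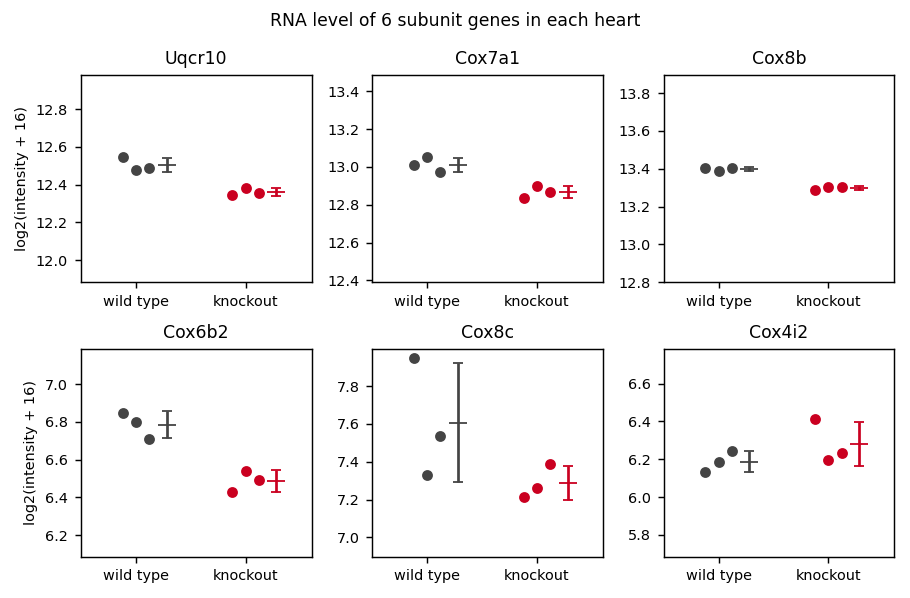
Level of 6 genes in each heart on the scale of log2(intensity + 16), with the group mean and SD beside the points (n = 3 each) and the same axis length in every panel. For Uqcr10, Cox7a1, Cox8b and Cox6b2 all knockout hearts lie below all wild-type hearts. For Cox8c and Cox4i2 the groups overlap, and 1 heart stands apart in each.

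Paired isoforms were compared within each heart as the log2 ratio of one probe set to the other, which shows unequal change and no true ratio of transcripts. The Cox7a1 to Cox7a2 ratio was -0.33, -0.30 and -0.32 in the wild-type hearts and -0.47, -0.42 and -0.43 in the knockout hearts. Cox7a2 itself read 13.34, 13.35 and 13.30, then 13.31, 13.32 and 13.30 in knockout. The ratio's groups did not overlap and differed by -0.13 (exact permutation test, two-sided, p = 0.1, the smallest that 3 against 3 can give; 0.25 after Benjamini-Hochberg adjustment over 5 pairs). The Cox6b2 to Cox6b1 ratio differed by -0.29 in the same way, with the same p-values by the exact permutation test, and Cox6b1 read 13.65, 13.67 and 13.65, then 13.66, 13.66 and 13.63 in knockout. Cox8a read 10.87, 10.82 and 10.99, then 10.74, 10.70 and 10.76 in knockout. For Cox8b and Cox8a the ratio differed by 0.059, and the groups overlapped (exact permutation p = 0.4, adjusted 0.625). Cox6a2, the heart isoform, read 13.75, 13.69 and 13.63 in wild-type hearts, against 13.65, 13.65 and 13.69 in knockout hearts. Cox6a1, the general form, read 12.23, 12.21 and 12.32, and 12.17, 12.23 and 12.23. Their ratio differed by 0.018, with overlapping groups (exact permutation p = 0.9). Of the heart isoforms, Cox7a1 fell, Cox8b stood just short of the threshold, and Cox6a2 had -0.025 with adjusted p = 0.697 (limma). The Cox4i2 to Cox4i1 ratio differed by 0.081, and the groups overlapped (exact permutation p = 0.5). Cox4i1 read 13.78, 13.82 and 13.80, then 13.80, 13.82 and 13.82 in knockout.

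**Figure D4:**
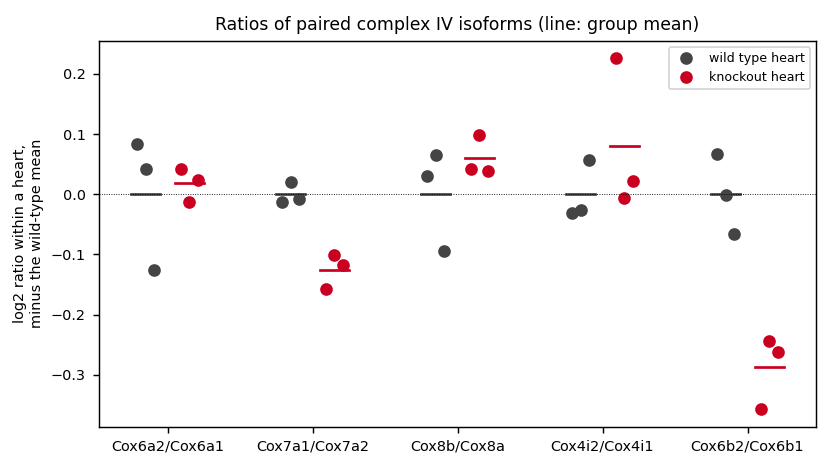
Log2 ratio of the 2 isoforms within each heart, set against the wild-type mean of that ratio, for 5 isoform pairs of complex IV. Points are hearts and lines are group means; the knockout hearts lie below the wild-type hearts for Cox7a1/Cox7a2 and Cox6b2/Cox6b1 and mix with them for the other pairs.

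Complex V had the median closest to 0 of the 4 complexes, -0.020 over 17 genes, and none was called. The catalytic head was nearly level: Atp5a1, the alpha subunit, stood at -0.0064, Atp5b, the beta subunit, at 0.029 and Atp5c1, the gamma subunit of the rotor, at -0.012. Their 95% intervals lay between -0.067 and 0.10. Atp5d and Atp5e, the delta and epsilon subunits of the rotor, had -0.070 and -0.034. Of the 3 genes for the proton-carrying c ring, which make the same mature protein, Atp5g1 had -0.065, Atp5g2 -0.081 and Atp5g3 0.026. The groups of all 3 did not overlap, and Atp5g3 was the one with the knockout higher, but none passed (limma adjusted p = 0.264, 0.223 and 0.520). In the stalk and at its membrane foot, Atp5o had -0.050, Atp5pb 0.035, Atp5h 0.010, Atp5j -0.020, Atp5j2 -0.042, Atp5k -0.077, Atp5l -0.0055, Atp5md -0.016 and Atp5mpl -0.085. Atp5pb, at 13.30, 13.40 and 13.26 in wild-type hearts, against 13.31, 13.37 and 13.38 in knockout hearts, had the second highest difference of all members, with overlapping groups. By complex the medians were -0.051 for complex II, -0.038 for complex III, -0.030 for complex IV and -0.020 for complex V.

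Most members were among the brightest genes on the array, and 38 of the 48 lay in the upper 1% of probe sets. Whether signals there were still proportional to RNA was not tested. Of 25 members with more than 1 tested probe set, 17 had all of them below 0. The second brightest probe set had the lower difference in 19 of these 25, with a median gap of -0.035, and in 50.5% of 5001 other genes. Among genes whose brightest set reached 12 on the log2 scale, it was lower in 17 of 22 members and in 95 of 150 other genes. Atp5pb and Uqcrc2 had 0.035 and 0.015 at the brightest set and -0.073 and -0.077 at the second. Of all 84 tested member probe sets, 70 stood below 0, against 53.1% of all probe sets tested, 2 were called lower, against 0.822%, and 0 were called higher, against 2.36%.

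**Figure D5:**
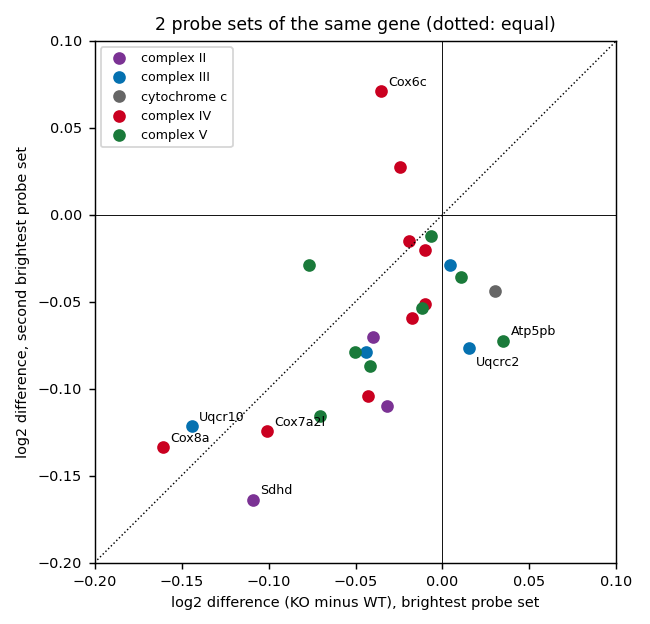
Log2 difference of knockout minus wild type at the brightest (horizontal) and the second brightest (vertical) probe set for the 25 members with more than 1 tested set, with the dotted line where both are equal. Points below the line, 19 of 25, have the lower value at the dimmer set; Cox6c, at -0.035 and 0.071, lies farthest above it.

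The factors that build these complexes had a lower median than the subunits, a difference that was not tested. The factors were also dimmer, with a median percentile of 89.9 among probe sets against 99.7 for the members, so the medians are not compared at a like level. Of 32 tested assembly factors of complexes II to V, 1 was called lower, against 1.07% of all genes tested, and none was called higher. Below 0 stood 29, against 54.2%, with a median of -0.11. Groups did not overlap with the knockout lower in 18 and higher in 1, against 15.2% and 13.5%. Cmc2, a copper-related factor for making complex IV, fell by 0.33 (SE 0.042, limma adjusted p = 0.00487). It read 10.07, 10.02 and 10.02 in wild-type hearts, against 9.73, 9.71 and 9.69 in knockout hearts, without overlap. Another of its 3 tested probe sets passed too, and the call held in 13 of 14 alternatives; with arrays centred on their medians the adjusted p was 0.0525 (limma). Lrpprc, which stabilises mitochondrial messenger RNA, had -0.19, Uqcc3, for complex III, -0.19, and Sdhaf4, for complex II, -0.17, all short of the threshold with groups that did not overlap. Atpif1, the inhibitor of ATP synthase, read 10.826, 10.987 and 11.002 in wild-type hearts, against 10.730, 10.678 and 10.633 in knockout hearts, and fell by 0.26 (SE 0.054, limma adjusted p = 0.0403). This call was lost in 9 of 14 alternatives, among them the intensities as deposited (adjusted p = 0.157, limma), and a dimmer probe set did not pass. Ndufa4, once counted with complex I and now with complex IV, stood at 0.0073.

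The entry points to the chain ahead of complex III had few calls, though most of their genes stood below 0. Of 32 tested complex I subunits 1 was called lower, against 1.07% of all genes tested: Ndufs4, by 0.19 (limma adjusted p = 0.0495). None was called higher, and 31 stood below 0, against 54.2%, with a median of -0.072. Groups did not overlap with the knockout lower in 17 and higher in 0, against 15.2% and 13.5%. Unadjusted limma p was under 0.05 in 15, all lower, against 11%. Dimmer tested probe sets of Ndufs4 had -0.18 and 0.030 and did not pass. Ndufs5 had -0.14, Ndufb10 -0.092 and Ndufa9 -0.10, none past the threshold. Of 5 other genes that feed electrons to ubiquinone, Etfb, a subunit of the electron carrier of fatty acid oxidation, fell by 0.14 (limma adjusted p = 0.0483). Etfa, its partner, had -0.085, Gpd2 -0.22 and Dhodh -0.096 and did not pass. The calls of Ndufs4 and Etfb were lost when any one array was left out, and with the intensities as deposited. Of 14 alternatives, Ndufs4 lost its call in 11 and Etfb in 10. None of 8 genes for the export of ATP and its energy from mitochondria was called; Vdac3 had -0.070, Slc25a5 -0.058, Vdac1 -0.033 and Vdac2 -0.032, with a list median of -0.027. Of 14 regulators of respiratory genes none was called. Ppargc1a, the coactivator PGC-1 alpha, had -0.23 (limma adjusted p = 0.109), Esrrb -0.23 and Esrra -0.12, each without overlap between the groups, and Gabpb1 had 0.21.

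Fat markers also differed between the hearts, and Cox7a1 and Cox8b are known to be high in brown fat as well as in heart. Ucp1, the uncoupling protein that defines brown fat, read 6.63, 8.37 and 9.68 in the wild-type hearts and 5.20, 5.20 and 6.93 in the knockout hearts. Its groups overlapped, and its difference of -2.45 did not pass (limma adjusted p = 0.107). Of 3 tested brown fat markers none was called. Cidea had -0.42 without overlap between the groups (limma adjusted p = 0.140), and Prdm16 had 0.12 with overlap. The summed intensity of the 6 measured ones was 1087 to 2302 in wild type and 943 to 1092 in knockout. Most of this sum came from Cidea in each heart. None of the 6 was at 0, but Elovl3, Slc27a2 and Otop1 were too dim to be tested. Of 8 tested adipocyte markers Slc36a2 fell by 0.56 and Fabp4, also an endothelial gene, rose by 0.15, with a list median of -0.40. Adipoq, the fat hormone adiponectin, had -1.89, Car3 -1.71 and Pck1 -1.58, each with overlapping groups and short of the threshold (limma adjusted p = 0.109, 0.150 and 0.0983). At unadjusted p under 0.05, 4 of the 8 were lower and 1 higher. The summed intensity of the 10 measured markers was 26303 to 29360 in wild-type hearts and 26155 to 27564 in the knockout. Most of it came from Lpl and Fabp4, which are not specific to fat in heart. None of the 10 was at 0, but Cidec and Lep were too dim to be tested. The part of fat tissue in the differences of Cox7a1 and Cox8b was not tested. Skeletal muscle also uses these isoforms. Of 4 tested skeletal muscle markers none was called. The summed intensity of the 7 measured was 13928 to 15479 in wild type and 14691 to 17624 in knockout. Most of it came from Acta1 and from Ckm, which is also counted here with energy export, so the sum does not measure skeletal muscle alone. Acta1 had 0.61 with overlapping groups (limma adjusted p = 0.127), and Ckm had -0.021. Tnni2 and Mylpf were dim, at 6.16 and 6.14 in wild type, and Tnnt3, Myh1 and Myh4 were too dim to be tested.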

How the data were processed

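The deposited table holds, per the labels, 1 intensity per probe set and array on a linear scale. The submitters' processing notes list GCOS 1.4 without saying what it did; summary, background correction and scaling are not given in the sources used here. Trimmed means (2% at each end) differed by 8.42% between arrays, so the values were brought to a common distribution by quantile normalisation (limma 3.58.1, R 4.3.3) and turned into log2(intensity + 16), on which every fold change is given and which understates the change of low genes. Leaving out 64 control probe sets, the 22519 of 45037 probe sets in the upper 50% by mean were tested with lmFit and eBayes with a trend, knockout minus wild type, no covariate, Benjamini-Hochberg adjustment and a threshold of 0.05; 716 passed, 531 higher and 185 lower. With 3 arrays a group, their number limits the precision. The fit was tested on simulated data. Isoform ratios were tested with scipy 1.17.1.

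Names come from the platform annotation (34945 probe sets with 1 symbol). All 48 member symbols are named. Values by heart are given for called members, isoform pairs, and the 2 largest rises and 2 largest falls among the rest, and, chosen after the values were seen, for Sdhd; partners named are those called and up to 4 of each list with the smallest p. The members and lists were chosen with earlier results of these data known, so no list was tested as a set.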

Additional observations from a re-analysis of the deposited data

How the results depend on the processing

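The directions of Uqcr10 and Cox7a1 held in all 14 alternatives, while Uqcr10 kept its call in 4 and Cox7a1 in 5. Members called lower, 2 here, were 1 with the intensities as deposited, 0 when centred on array medians, 0 with no filter on low values, 0 with eBayes without the trend, 4 with array weights (Cox6b2, Cox7a1, Cox8b and Uqcr10), and 3 with the upper 25% of probe sets or with each gene as its probe sets' average (there Cox6b2, Cox7a1 and Cox8b). Leaving out 1 array gave 0 in each case, and no alternative called a member higher. Array-wide calls, 185 lower and 531 higher, were 58 lower and 577 higher as deposited (90.9% higher, against 74.2%), 41 and 585 when centred on medians (93.5% higher), 103 lower with no filter, 73 and 341 without the trend and 392 lower with array weights; without 1 array they ran from 35 to 195 lower and 154 to 549 higher. The cause was not tested. The member median of -0.035 was -0.020 when centred on medians and -0.025 to -0.042 without 1 array; that of complex IV, -0.030, was -0.048 with each gene averaged over its probe sets. All genes tested had medians of -0.014 here, 0.034 as deposited and 0.053 when centred on medians, where 39 and 34 of 47 members still stood below 0, against 39.5% and 34.0% of all genes. Cytochrome c, 1 gene, ran from -0.0028 to 0.067 without 1 array. The Cox6a2 to Cox6a1 ratio, 0.018, ran from -0.048 to 0.062 and turned to -0.048 without wild type replicate 3. The other isoform ratios kept their direction under as-deposited, median-centred and both other pseudocounts (1 and 64), and without each array. No paired analysis was possible because the knockout titles carry no replicate number shared with the wild-type titles.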

Other observations

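Among the 36 members with a promoter entry, Cox8b, Cox7a1 and Uqcr10 had the fewest CpG dinucleotides in the 250 bases before the start. They were also the 3 members with the smallest limma p. This was noticed after the values were seen. Cox6b2 followed closely, with unadjusted limma p of 0.001997 beside 0.00197 for Cox8b, and then Sdhd. These 2 genes had 8 and 27 CpG. Over 35 tested members with a promoter entry, Spearman's rho between the CpG number and the log2 difference was 0.43 and Pearson's r 0.43. Both are given as a description of genes that share the same 6 arrays. They include the 3 genes noticed first, and neither was computed over other genes. Among other genes tested, 1258 had at most 5 CpG, with a median difference of -0.027, 1.35% called lower and 5.80% called higher; 7977 had more, with -0.013, 1.00% and 2.22%.

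Of the 4 called genes in the lists of assembly factors, complex I, electron donors and the ATP synthase inhibitor, Cmc2 was the one whose call held without each of the 6 arrays. Its brightest probe set had log2 differences between -0.34 and -0.26 over 14 alternatives, with limma adjusted p from 0.00293 to 0.0525.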
